A study of Mus musculus with 3 samples.

Results

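Chemokines are small secreted proteins that direct cell movement, and chemokine receptors are the G-protein-coupled receptors that read them. The 50 genes described here are all genes on the array whose name is Ccl, Cxcl, Ccr or Cxcr followed by a number. They have 65 of the 55680 probes and are 50 of 32053 named genes: 33 ligands (20 CC and 13 CXC) and 17 receptors (10 CC and 7 CXC). The posterior frontal suture, the midline joint between the frontal bones of the mouse skull, was measured on 3 one-colour Agilent arrays. The arrays carried RNA of Runx2+/- mice at postnatal day 7 (P7), of Runx2+/+ (wild-type) mice at P7 and of wild-type mice at P5, with 1 array for each group and all mice on a C57BL/6 background. Runx2 encodes a transcription factor that osteoblasts need to form, and Runx2+/- mice carry a single working copy. The lacking part of the allele and the number of mice behind each array are not given in the labels. With 1 array a group there is no test and no p-value, and each difference below is between 2 hybridised samples.

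Chemokines bind the matrix and form gradients that receptors on moving cells follow. Some are made continuously by stromal cells. Cxcl12 holds blood-forming cells in bone marrow through the receptor Cxcr4 and is removed by the scavenging receptor Cxcr7 (now named Ackr3), while Cxcl14 is made by fibroblasts and epithelia. Others are induced by injury or infection and recruit monocytes, neutrophils or lymphocytes from blood. In bone, osteoclasts arise from the myeloid lineage that several of these ligands attract.

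The probes of the stromal ligands and of Cxcl11 were 60 bases long. For each a stretch of 30 bases is shown 5′ to 3′, since what a probe can bind decides what its signal counts. The first 3 are the stromal ligands, with the letters AATAAA, a polyadenylation signal, in capitals where they occur. The last 2 are the Cxcl11 probes, with capitals marking a run of 16 bases also present in probes that carry other gene names. Positions (mm9) and strands are as in the files. The Cxcl12 probe used below lies at chr6:117131227-117131286 (plus strand), the other at chr6:117125026-117125085 (plus strand), and the Cxcl14 probe at chr13:56390078-56390137 (minus strand). The Cxcl11 probes lie at chr5:92788640-92788699 and chr5:92788567-92788626 (minus strand). An mm9 annotation was not used here, so the exons are not given.
Cxcl12, probe used: tgctttcttattcttatttttaatatatga
Cxcl12, other probe: tatttacctgaAATAAAatctactagttgt
Cxcl14: tatctgctatgtaaatgctgagacccctga
Cxcl11, dim probe: ttgaaagGCAGAGGCAGGAGGATctcttga
Cxcl11, bright probe: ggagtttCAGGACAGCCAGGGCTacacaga

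Levels are log2 units above the 75th percentile of the same array, so 0 is that percentile and 1 unit is 2-fold. Each gene is given by its brightest probe over the 3 arrays, and a level is compared between arrays for one probe, not between probes. The arrays differed in brightness: the 75th percentile lay at 124.3, 22.8 and 52.1 intensity units on the Runx2+/-, P7 wild-type and P5 wild-type arrays, and 47.3%, 29.2% and 40.1% of probes were well above background. Repeated spots put the SD of differences between arrays (log2) at 0.20 for Runx2+/- minus P7 wild type and 0.22 for P7 minus P5 wild type, and at 0.29 and 0.32 among the dimmest 63 of the 190 such probes. Among the brightest 64 the SDs were 0.10 and 0.11. These SDs are technical error on an array and leave out the spread between mice. Among genes measured on both arrays, the dimmest eighth had a median difference of -0.63 for genotype and 0.42 for age, against 0.11 and 0.09 over all genes. Probes nearer the 3′ end of a transcript exceeded those nearer the 5′ end by a median of 0.12 for genotype (850 transcripts) and 0.15 for age (844 transcripts). Runx2 read 1.08 in Runx2+/-, 1.46 in P7 wild type and 2.38 in P5 wild type, which does not check the genotype because the lacking part of the allele is not given. The X-linked transcript Xist read -3.10, 1.94 and 2.45 on the same arrays and the Y-linked Ddx3y 1.79, -2.79 (not well above background) and -0.88, so transcripts of the sex chromosomes differed between the samples. The part of sex, brightness and 3′ position in the differences below was not tested.

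The family was detected in part. A total of 25 members were well above background on at least 1 array, among them 13 Ccl, 4 Cxcl, 3 Ccr and 5 Cxcr genes, and 25 were not on any, where 58.8% of all genes were detected. By array, 24 members were detected in Runx2+/- sutures, 13 in P7 wild type and 20 in P5 wild type, or 48.0%, 26.0% and 40.0%. The corresponding shares over all genes were 56.8%, 38.4% and 49.7%, so each array detected a smaller share of the family than of all genes and the order of the arrays was the same. The 12 members seen on every array were 7 Ccl ligands, 4 Cxcl ligands and Cxcr7, against 37.6% of all genes. Ccl2, Ccl5, Ccl8, Ccl11, Ccl24, Ccr2, Cxcr2 and Cxcr4 were detected on the Runx2+/- and P5 wild-type arrays but not on the P7 wild-type array, a pattern of 10.7% of all genes. Ccl3, Ccr7, Cxcr3 and Cxcr6 were detected on the Runx2+/- array alone and Ccr4 on the P7 wild-type array alone. The P7 wild-type array was also the dimmest, with the highest floor for detection relative to its 75th percentile (-0.78, against -3.25 in Runx2+/- and -2.12 in P5 wild type), and the part of that in the counts was not tested.

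**Figure D1:**
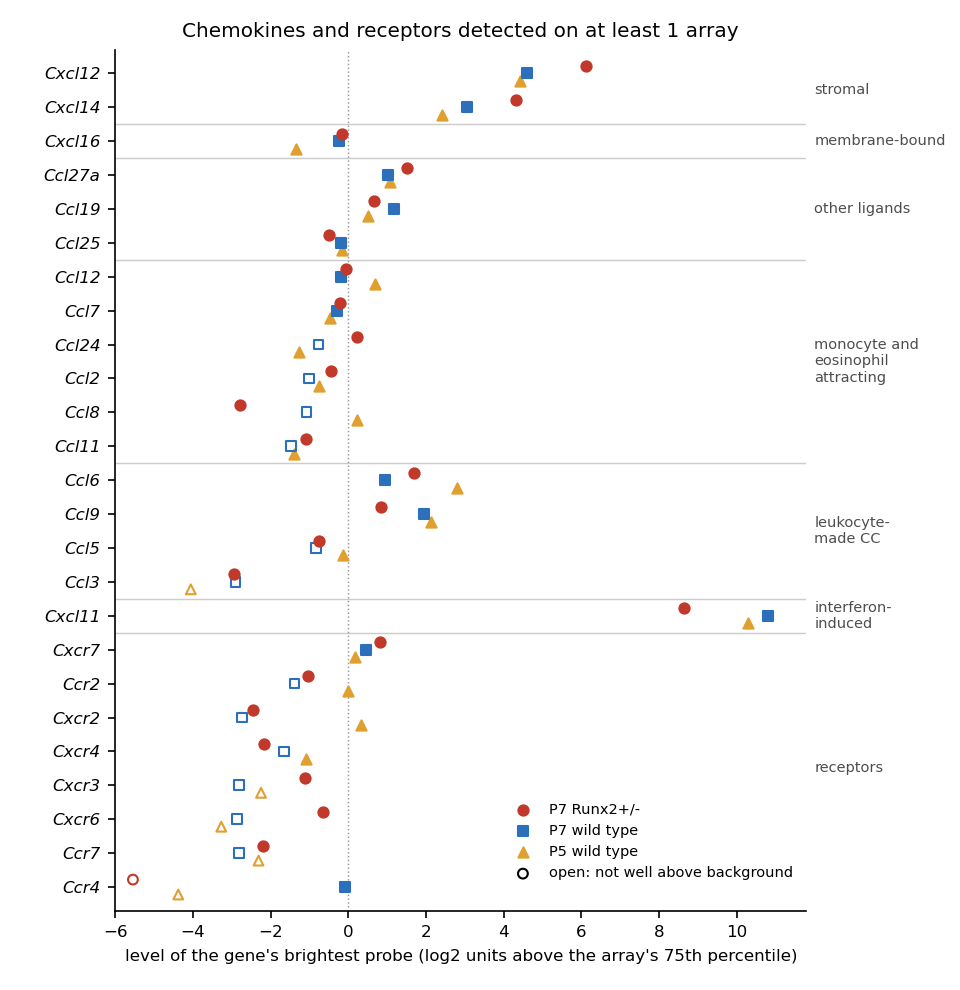
Level of each of the 25 members detected on at least 1 array, as log2 units over the 75th percentile of its array, for P7 Runx2+/- (circles), P7 wild type (squares) and P5 wild type (triangles); open symbols were not well above background. The Cxcl12 and Cxcl14 circles lie right of their wild-type symbols, most receptors lie below 0, and only Cxcr7 among the receptors is filled on all 3 arrays.

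The members not detected on any array had several roles, most of them shared with members that were detected. They held the neutrophil-attracting ligands Cxcl1, Cxcl2, Cxcl3, Cxcl5 and Cxcl15, the interferon-induced T-cell attractants Cxcl9 and Cxcl10, and Cxcl13, which guides B cells into follicles. Also not detected were Cxcl17, Ccl1, Ccl4, Ccl17, Ccl20, Ccl22, Ccl26 and Ccl28. Of the receptors, Ccr1, Ccr3, Ccr6, Ccr8, Ccr9, Ccr10, Cxcr1 and Cxcr5 were not detected. The highest intensity of their used probes was 11.98 units in Runx2+/-, 4.85 in P7 wild type and 8.31 in P5 wild type, where the dimmest probe called well above background read 13.1, 13.3 and 11.99. These are statements about the detection limit of 1 array each and not of absence.

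Some members lie in gene clusters, and 3 of these are given here beside the 58.8% of all genes detected on any array. In the cluster whose probes span chr11:81850650-81990510, 5 of 6 members were detected (Ccl2, Ccl7, Ccl8, Ccl11 and Ccl12, not Ccl1). In the cluster at chr11:83339296-83478111, 4 of 5 were detected (Ccl3, Ccl5, Ccl6 and Ccl9, not Ccl4). None of the 5 members at chr5:91190490-91334593 (Cxcl1, Cxcl2, Cxcl3, Cxcl5 and Cxcl15) was detected.

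Comparing Runx2+/- with wild type at P7 asks what differs in the suture with 1 working copy of Runx2, and comparing P7 with P5 wild type asks what differs between the ages. Both use the P7 wild-type array, so they are not independent and are given side by side. A difference counts as measured when both arrays called the gene well above background. When the brighter array alone did so, "at least N-fold" gives the bright value against the higher of the dim probe's own value and the lowest value called well above background on that array; other genes have no order. For genotype, 17 members had an order, 12 of them measured and 5 as bounds: 2 were at least 2-fold higher (Cxcl12 and Cxcl14), 3 were at least 2-fold lower (Ccl9, Cxcl11 and Ccr4) and 12 lay within 2-fold. Over all 13554 ordered genes 5.38% were at least 2-fold higher and 13.2% at least 2-fold lower. For age, 18 had an order, 12 of them measured: 2 were at least 2-fold higher at P7 (Cxcl16 and Ccr4), 3 were at least 2-fold lower (Ccl6, Ccl8 and Cxcr2) and 13 lay within 2-fold, where all 13445 ordered genes gave 6.32% and 3.29%. The median over the measured members was 0.10 for genotype and 0.17 for age, beside 0.11 and 0.09 for all genes. These counts rest on 2 or 3 genes each, and nothing particular to the family is read from them.

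**Figure D2:**
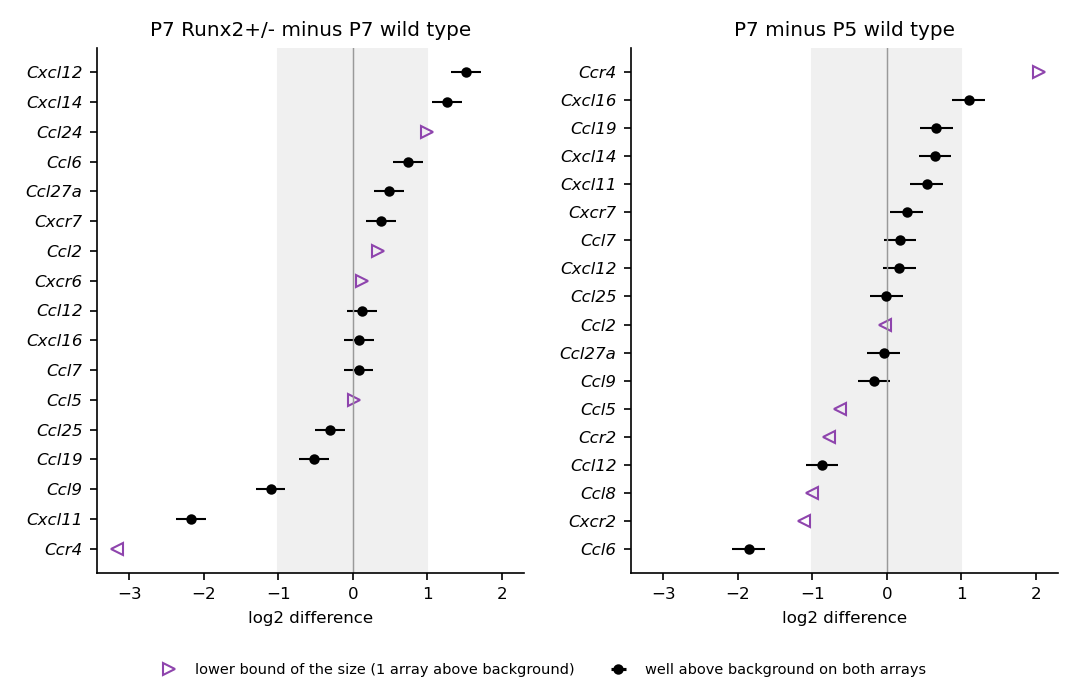
Log2 difference of each ordered member, P7 Runx2+/- minus P7 wild type (left) and P7 minus P5 wild type (right); points are measured differences with bars of 1 SD from repeated spots (0.20 and 0.22), open triangles are lower bounds that point away from 0, and the grey band is less than 2-fold. In the left panel Cxcl12 (1.52) and Cxcl14 (1.27) lie right of the band and Ccl9, Cxcl11 and Ccr4 left of it.

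**Figure D3:**
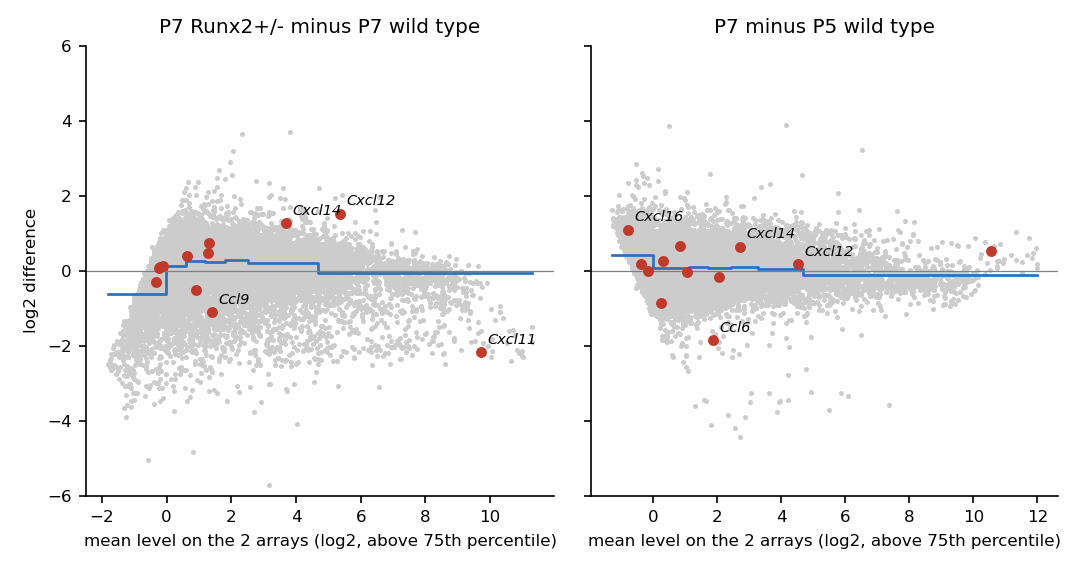
Log2 difference against the mean level on both arrays for every gene measured on both (grey) and the 12 members measured (red), P7 Runx2+/- minus P7 wild type (left) and P7 minus P5 wild type (right); the blue step line is the median in eighths of the mean level. The dimmest eighth lies at -0.63 (left) and 0.42 (right), and Cxcl12 and Cxcl14 lie above the left line while Ccl6 lies below the right one.

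The stromal ligands Cxcl12 and Cxcl14 were the members at least 2-fold higher in Runx2+/- sutures at the settings used here. Of the 12 measured members 8 lay above 0. Cxcl12 read 6.12 in Runx2+/-, 4.61 in P7 wild type and 4.44 in P5 wild type (8661, 554 and 1128 intensity units). It was 1.52 log2 units, or 2.86-fold, higher in Runx2+/- than in P7 wild type, and P7 and P5 wild type differed by 0.17. Its second probe, at a different place in the gene, read 4.10, 2.56 and 2.46 and gave 1.54 (2.91-fold) and 0.11. The Runx2+/- array stood above both wild-type arrays with each probe by several times the spot SD. The wild-type arrays differed by less than the SD of 0.22 over all repeated probes. With the probe used here they differed by more than the 0.11 of the brightest repeated probes. The age difference turned to -0.40 after another background correction (normexp), so no direction is given for it.

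Cxcl14 read 4.32 in Runx2+/-, 3.05 in P7 wild type and 2.40 in P5 wild type. It was 1.27 log2 units, or 2.41-fold, higher in Runx2+/- than in P7 wild type and 0.65 (1.56-fold) higher at P7 than at P5. The 3 arrays thus lay in the order P5 wild type, P7 wild type, Runx2+/-, with each step larger than the spot SD. The age step was 0.10 after normexp.

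Cxcl12 and Cxcl14 were at least 2-fold higher in Runx2+/- under each of the 9 alternative treatments of the values, with Cxcl12 between 1.42 and 2.57 and Cxcl14 between 1.17 and 2.17. Some of these treatments could not change the values. Changing the filter or taking the probe nearest the 3′ end returned 1.52 and 1.27 again. The mean over probes did the same for Cxcl14, which has a single probe. Marker lists of stromal, endothelial and bone cells did not differ in a single direction. Of 10 stromal reticular and perivascular markers, 8 were detected (not Il7 or Grem1), 1 of 7 ordered was at least 2-fold higher and 1 at least 2-fold lower in Runx2+/-, the median was 0.62, and the summed level was 43.7, 56.2 and 54.8 times the array's 75th percentile on the Runx2+/-, P7 wild-type and P5 wild-type arrays. Without Lepr, the brightest, it was 37.4, 26.4 and 20.8. Lepr, a marker of Cxcl12-rich marrow stroma, read 2.65 on the Runx2+/- array, against 4.90 in P7 wild type and 5.09 in P5 wild type, and Ebf3, a transcription factor of the same cells, read 1.83, 0.58 and 0.24. Whether the Lepr probe shares runs of bases with probes of other names was not looked at. Of 12 endothelial markers, 6 of 11 ordered were at least 2-fold higher and 1 lower in Runx2+/- with a median of 0.83, Sele was not detected and the summed level was 274.1, 178.8 and 186.7, or 122.3, 129.0 and 127.0 without Egfl7, the brightest. Of 10 osteoblast markers, all detected on each array, 8 were at least 2-fold lower in Runx2+/-, with a median of -1.90 and summed levels of 1580, 6269 and 4104, or 268.8, 1340 and 889.3 without Col1a2, the brightest. In whole sutures fewer cells of a type and less RNA per cell cannot be told apart, and the part of these cells in the Cxcl12 and Cxcl14 values was not tested.

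The receptors that Cxcl12 binds were measured beside it. Cxcr7, which takes up Cxcl12 without coupling to G proteins, read 0.83 in Runx2+/-, 0.45 in P7 wild type and 0.18 in P5 wild type. It was 0.38 higher in Runx2+/- and 0.27 higher at P7, and the genotype difference turned to -0.26 with normexp and median scaling. Cxcr4, the signalling receptor, read -2.17 in Runx2+/-, -1.65 in P7 wild type (not well above background) and -1.08 in P5 wild type. It therefore has no order for either comparison, since the P7 wild-type floor lies above both other values.

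Cxcl16, a membrane-bound ligand of Cxcr6 made by macrophages and endothelium, read -0.16 in Runx2+/-, -0.24 in P7 wild type and -1.34 in P5 wild type. It was 1.099 log2 units, or 2.14-fold, higher at P7 than at P5 in wild type. It differed by 0.09 between the P7 arrays, with a sign that turned under 3 of 9 alternatives. It belongs to the dimmest eighth, where all genes had a median of 0.42 for age, and the age difference was 0.39 under normexp with the 75th percentile and 0.68 with median scaling, both under 2-fold. Cxcr6, found on memory and natural killer T cells, was detected on the Runx2+/- array alone at -0.66, against -2.87 in P7 wild type and -3.27 in P5 wild type (both not well above background), at least 1.09-fold higher than P7 wild type. Its other probe was also detected there alone, at -1.92, and has no order.

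Other ligands made in tissues at rest differed little. Ccl19, which draws T cells and dendritic cells to lymphoid tissue through Ccr7, read 0.66 in Runx2+/-, 1.18 in P7 wild type and 0.51 in P5 wild type. It was 0.52 lower in Runx2+/- than in P7 wild type and 0.67 higher at P7 than at P5, and a second probe gave -0.62 and 0.82. That second probe lay in the dimmest eighth, where all genes had a median of -0.63 for genotype and 0.42 for age. The remaining Ccl19 probe was detected at -0.67 in Runx2+/-, against -2.27 in P7 wild type (not well above background) and -1.03 in P5 wild type. It went the other way for genotype, at least 1.08-fold higher in Runx2+/-. The genotype sign turned under 2 of 9 alternatives, to 0.15 with the mean over its probes and 0.05 under normexp with the 75th percentile, where the age difference was 0.12. The Ccl19 probes are placed on the plus strand of chr4 (mm9), and the RefSeq start of Ccl19 on the minus strand (GRCm38.p6). Whether these probes also count related copies was not tested. Ccr7 was detected on the Runx2+/- array alone at -2.18, against -2.80 and -2.31, neither well above background, in P7 and P5 wild type.

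Ccl27a, a skin-homing ligand, read 1.52 in Runx2+/-, 1.04 in P7 wild type and 1.08 in P5 wild type, 0.48 higher in Runx2+/- and 0.04 lower at P7. Its probe's accessions also name Ccl27b, Gm13306 and Gm2506, so these near-identical copies cannot be told apart. With normexp and median scaling the genotype difference was -0.01. Ccl25, a thymus and gut ligand for Ccr9, read -0.48 in Runx2+/-, -0.18 in P7 wild type and -0.17 in P5 wild type. It was 0.31 lower in Runx2+/- and differed by 0.01 between the ages. Ccl25 lay in the dimmest eighth, where all genes had a median of -0.63 for genotype and 0.42 for age. Its other probes were dimmer and have no order in either comparison.

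The ligands that attract monocytes and eosinophils read near or below the 75th percentile of their arrays. Ccl12, a mouse ligand of Ccr2, read -0.06 in Runx2+/-, -0.18 in P7 wild type and 0.69 in P5 wild type. It was 0.87 lower at P7 than at P5, the P5 array being above both P7 arrays, and differed by 0.12 between genotypes, a sign that turned to -0.78 with normexp and median scaling. Under normexp the age difference of Ccl12 was -0.38 with the 75th percentile and -0.09 with median scaling. Ccl7, another monocyte attractant, read -0.20, -0.28 and -0.46 on the Runx2+/-, P7 wild-type and P5 wild-type arrays, differences of 0.08 for genotype and 0.18 for age that are under the spot SD. The genotype value of Ccl7 was -0.84 with normexp and median scaling.

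Ccl2, the main monocyte attractant, was spotted repeatedly and shows the technical spread directly. It read -0.44 ± 0.09 in Runx2+/- (SD, 9 spots), -1.001 ± 0.24 in P7 wild type (8 spots, none well above background) and -0.75 ± 0.19 in P5 wild type (10 spots). These are spots of 1 array each and not replicates. Ccl2 was at least 1.26-fold higher in Runx2+/- than in P7 wild type and at least 1.02-fold lower at P7 than at P5.

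Ccl8, which attracts monocytes and, in mouse, Ccr8-bearing cells, read -2.78 in Runx2+/-, -1.08 in P7 wild type (not well above background) and 0.23 in P5 wild type. It was at least 2.01-fold lower at P7 than at P5 and had no order between genotypes. Under normexp with the 75th percentile the age bound was -0.18, which is under 2-fold. Ccl24, an eosinophil attractant, read 0.23 on the Runx2+/- array, against -0.77 (not well above background) in P7 wild type and -1.26 in P5 wild type, and was at least 1.99-fold higher in Runx2+/-. This bound was 1.05 log2 units with quantile normalization, 1.19 with the authors' deposited table and 0.34 under normexp with the 75th percentile. Ccl11, also an eosinophil attractant, read -1.09, -1.47 (not well above background) and -1.40 and has no order in either comparison.

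Ccr2, the receptor for Ccl2, Ccl7 and Ccl12, read -1.03 in Runx2+/-, -1.38 in P7 wild type (not well above background) and 0.01 in P5 wild type. It was at least 1.72-fold lower at P7 than at P5 (a bound of -0.18 under normexp) and has no order between genotypes. Ccr3, the receptor of the eosinophil attractants, was not detected.

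Of the CC ligands that leukocytes make, Ccl6 differed most with age. Ccl6, a myeloid-cell ligand, read 1.69 in Runx2+/-, 0.95 in P7 wild type and 2.81 in P5 wild type (400, 43.9 and 364 intensity units). It was 1.86 log2 units, or 3.62-fold, lower at P7 than at P5 in wild type and 0.74 (1.67-fold) higher in Runx2+/- than in P7 wild type. The P7 wild-type array held the lowest value and the age difference kept its size of at least 2-fold under all 9 alternatives, between -1.93 and -1.19. Changes of filter or of probe could not alter it, since its single probe was well above background on every array.

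Ccl9, a macrophage and osteoclast-lineage ligand of Ccr1 in mouse, read 0.86 in Runx2+/-, 1.96 in P7 wild type and 2.13 in P5 wild type. It was 1.11 log2 units, or 2.15-fold, lower in Runx2+/- than in P7 wild type and 0.17 lower at P7 than at P5. The Runx2+/- array alone stood low, in contrast to Ccl6, its neighbour in the cluster. The genotype difference was -0.89 under normexp with median scaling and -0.18 with the 75th percentile, both under 2-fold, and in the second the median of all genes moved to 0.68. The other leukocyte ligands were dimmer: Ccl5, a T-cell product, read -0.76, -0.82 (not well above background) and -0.14 on the Runx2+/-, P7 wild-type and P5 wild-type arrays. It was at least 1.55-fold lower at P7 than at P5 (a bound of -0.10 under normexp) and at least 1.01-fold higher in Runx2+/- than in P7 wild type. Ccl3, made by activated macrophages, was detected on the Runx2+/- array alone, at -2.95.

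Some markers of myeloid cells also differed between these arrays. Of 12 neutrophil markers, all were detected, 8 of 12 ordered were at least 2-fold lower at P7 than at P5 with a median of -3.64, and 7 of 11 were at least 2-fold higher and 1 lower in Runx2+/- with a median of 2.08. Their summed level was 605.2 in Runx2+/-, 572.6 in P7 wild type and 1456 in P5 wild type. The brightest probe, of Csf3r, gave 249.8, 493.1 and 539.7 of these, and without it the sums were 355.3, 79.5 and 916.4. Of 11 monocyte and macrophage markers with a probe, 10 were detected (not Cd163). For age, 1 of 9 ordered was at least 2-fold higher and 1 lower, with a median of -0.06. For genotype it was 2 of 9 each way with a median of 0.37, and the summed levels were 162.5, 399.9 and 424.5. Without Itgam, the brightest, they were 83.3, 75.2 and 67.2, so the lower sum in Runx2+/- rests on that probe. Lyz2 read 1.92 on the Runx2+/- array, against -0.11 in P7 wild type and 2.17 in P5 wild type, and Itgam read 6.31, 8.34 and 8.48. Csf1r, another bright marker of this list, differed little, at 5.67, 5.58 and 5.40. The part of myeloid cells in the Ccl6, Ccl8, Ccl9 and Ccr2 values was not tested.

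Cxcr2, the receptor of the neutrophil attractants, read -2.45 in Runx2+/-, -2.73 in P7 wild type (not well above background) and 0.33 in P5 wild type. It was at least 2.15-fold lower at P7 than at P5 and has no order between genotypes. Under normexp the age bound was -0.33 with the 75th percentile and -0.03 with median scaling, which is under 2-fold. The P5 array stood above the rest. The neutrophil markers S100a9 and Ltf, named for brightness and difference, also read highest there. They read 7.55, 5.58 and 9.14 and 4.14, 0.51 and 4.94 on the Runx2+/-, P7 wild-type and P5 wild-type arrays. Not every marker on the list did so, as Camp read 5.67, 1.98 and 5.23 on the same arrays. The Cxcr2 ligands Cxcl1, Cxcl2, Cxcl3 and Cxcl5, all inside the naming rule, were not detected on any array. Ligands outside that rule, such as Ppbp, are not counted here and are given in the closing section. The part of neutrophils in the Cxcr2 value was not tested.

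The lymphocyte receptors Cxcr3 and Ccr4 were each detected on a single array. Cxcr3, a receptor of activated T cells, read -1.12 on the Runx2+/- array, against -2.81 in P7 wild type and -2.25 in P5 wild type, neither well above background, and has no order because its bright value lies under the P7 wild-type floor. Ccr4, a receptor of T-helper and regulatory cells, was detected on the P7 wild-type array alone, at -0.07 (21.6 intensity units), against -5.54 in Runx2+/- and -4.38 in P5 wild type. This gave at least 9.02-fold lower in Runx2+/- than in P7 wild type and at least 4.13-fold higher at P7 than at P5, from 1 spot on each array. The age bound was 0.72 under normexp with the 75th percentile, under 2-fold. The Ccr4 probe shares a run of 16 bases with 1 probe of another name. Of 11 T and NK cell markers with a probe, 6 were detected in Runx2+/-, 3 in P7 wild type and 4 in P5 wild type. Cd3d, Cd3g, Cd8a, Klrb1c and Gzmb were not detected on any array, and the summed level was 8.90, 26.0 and 16.5, or 5.74, 10.01 and 10.27 without Nkg7, the brightest.

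Cxcl11, an interferon-induced ligand of Cxcr3, is the member whose probes share a run of bases with the most probes of other names. The bright probe read 8.64 in Runx2+/-, 10.82 in P7 wild type and 10.28 in P5 wild type (49610, 41078 and 64919 intensity units). It was 2.18 log2 units, or 4.52-fold, lower in Runx2+/- than in P7 wild type and 0.53 higher at P7 than at P5. The dim probe read 4.05, 5.08 and 5.34 and gave -1.04 for genotype and -0.25 for age, so the probes went opposite ways with age. Under normexp with the 75th percentile the bright probe gave -0.94 for genotype and -0.16 for age, and with the authors' deposited table -0.72 for genotype. Cxcl9 and Cxcl10, the interferon-induced neighbours of Cxcl11 in the cluster at chr5:92752191-92788626, were not detected.

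The runs in capitals above recur in other places. A total of 12 probes with other names share a run of 16 bases with a Cxcl11 probe, among them probes named Elk1, Kctd14, Med16, Glrx2 and Rn4.5s, a 4.5S RNA, and 11 of the 12 were well above background on every array (Cdcp1 was not). Their medians were 8.19 in Runx2+/-, 10.02 in P7 wild type and 9.92 in P5 wild type. All 11 were lower in Runx2+/- than in P7 wild type, with a median difference of -1.89 and a range between -2.39 and -0.33. With age their median was -0.07, between -1.06 and 1.03. In RefSeq promoter windows (GRCm38.p6), 55 of 32851, or 0.167%, share a run of 16 bases with the bright Cxcl11 probe. Among the other 63 member probes, the most was 27 windows, for Cxcr7, and 10 shared a run with a probe of another name. Probes of the marker lists, among them the bright ones of Lepr, Itgam, Csf3r, Siglech and Trp63, were not checked for shared runs. Without Cxcl11 the genotype comparison holds 2 members at least 2-fold lower in Runx2+/-. The Cxcl11 signal is therefore given as that of its probes, and whether it counts Cxcl11 transcripts was not tested.

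**Figure D4:**
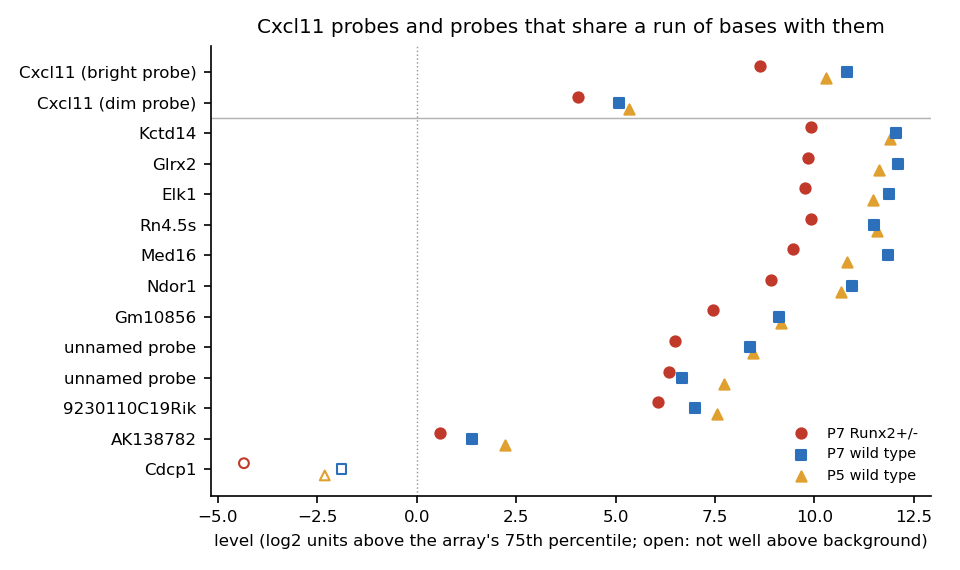
Level of both Cxcl11 probes and of the 12 probes of other names that share a run of 16 bases with them, as log2 units over the 75th percentile of each array, on the Runx2+/- array (circles), P7 wild type (squares) and P5 wild type (triangles); open symbols were not well above background. In each row with filled symbols the Runx2+/- circle lies left of the wild-type symbols.

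Detection was also counted by ligand and receptor together. Of 28 textbook ligand-receptor pairs among the members, drawn up after the detection results were known, 7 had both partners detected in Runx2+/-, 1 in P7 wild type and 5 in P5 wild type. The ligand was detected in 16, 10 and 15 of the pairs and the receptor in 13, 3 and 9 on the same arrays, and nothing beyond these separate detection rates is read from the joint counts. Cxcl12 with Cxcr7 was complete on every array. Cxcl12 with Cxcr4 and the pairs of Ccr2 with Ccl2, Ccl7 and Ccl12 were complete on the Runx2+/- and P5 wild-type arrays, and Cxcl16 with Cxcr6 and Ccl19 with Ccr7 on the Runx2+/- array alone. Neither partner was detected for 6 pairs in Runx2+/-, 16 in P7 wild type and 9 in P5 wild type.

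**Figure D5:**
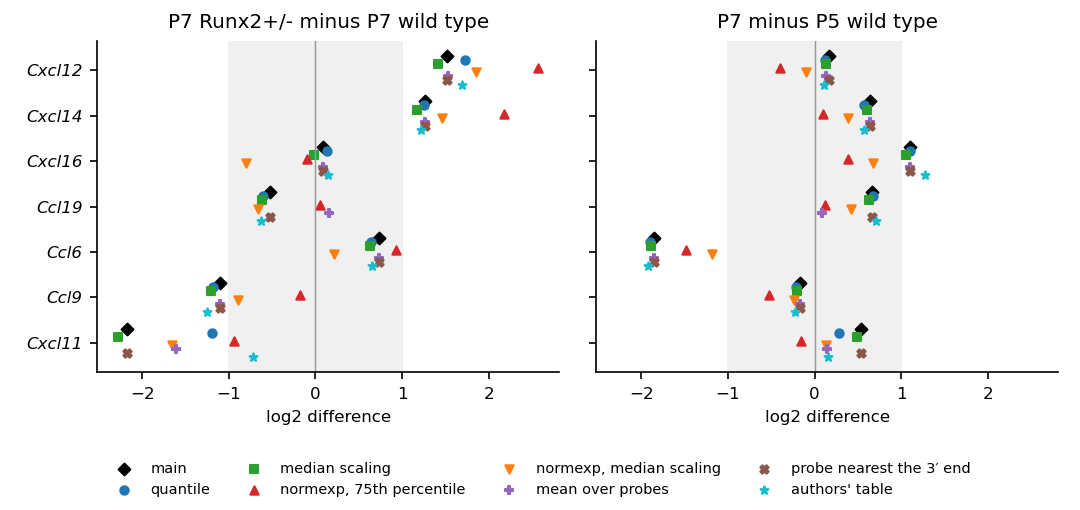
Log2 differences of 7 members under the values used here (black diamonds) and 7 other treatments of the signal, P7 Runx2+/- minus P7 wild type (left) and P7 minus P5 wild type (right), with the grey band marking less than 2-fold. For members with a single probe, the mean over probes and the probe nearest the 3′ end repeat the value used here. Cxcl12 and Cxcl14 stay right of the left band and Ccl6 left of the right band under every treatment drawn, while Ccl9 and Cxcl11 enter the band under normexp with the 75th percentile (red triangles), Ccl9 also with normexp and median scaling (orange triangles) and Cxcl11 also with the authors' table (stars).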

How the data were processed

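Total RNA was amplified, labelled with Cy3 and hybridised, per the labels' protocols. The scanner software was Agilent Feature Extraction. Its version is 10.7.1.1 in the file headers but 9.5.1.1 in the submitters' processing notes. The deposited scanner files hold, per the file headers, a linear intensity for each spot, already corrected for background and spatial trend, with flags and mm9 coordinates. A deposited table of the authors' processed intensity values, made by steps not given in the sources used here, served as an alternative. Its columns match in sorted order to within 0.001 log2 units.

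Control and outlier spots were left out, spots of a probe were averaged on the log2 scale, and each array's 75th percentile was subtracted. A multi-spot probe counted as well above background where at least 0.5 of its spots did. No spot was saturated. Alternatives were quantile and median scaling, normexp (limma 3.58.1, offset 50), other filters, probes and thresholds, and the authors' table. The steps were tested on simulated data. Every member may be named, as may detected genes of the pathway lists and up to 4 genes of a marker list by brightness or difference. The members and lists were chosen with earlier results of these data known. Promoters are RefSeq GRCm38.p6. The number of arrays limits the precision. All lists were computed in full; B cell, dendritic, mast, megakaryocyte, lymphatic, keratinocyte and leptomeningeal lists are given in the closing section. A member counted in the totals is not reported here.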

Additional observations from a re-analysis of the deposited data

How the results depend on the processing

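Of the results on counts and medians, 51 values stayed within 1.5 times, or within the spot SD, of those reported and 23 moved. The member medians changed sign under 3 of these settings, to -0.005, -0.72 and -1.33 for genotype and -0.062 for age. Normexp with the 75th percentile left 0 members at least 2-fold higher and 1 lower for age (median -0.062) and 1 lower for genotype. It moved the median of all genes to 0.68 for genotype, with 89.6% of calls higher in Runx2+/- (28.9% as reported), and to -0.25 for age, with 3.24% higher (65.8% as reported). Normexp with median scaling gave 1 higher and 1 lower for age and a genotype median of -0.72, with 19.4% and 37.4% of calls higher for genotype and age. Requiring all 3 arrays above background gave 1 higher and 1 lower for age. With no filter and no floor, age gave 19 higher (median 0.63) and genotype 4 higher and 27 lower (median -1.33). At 1.5-fold, age gave 4 higher and 6 lower and genotype 4 higher. At 3-fold, age gave 1 and 1 and genotype 0 higher. A looser detection flag counted 37, 24 and 37 members on the Runx2+/-, P7 wild-type and P5 wild-type arrays. Single members kept at least 2-fold in 9 of 9 alternatives for Cxcl12, Cxcl14 (genotype) and Ccl6 (age), in 7 of 9 for Ccl9, Cxcl11 (genotype) and Cxcl16 (age), in 8 of 8 (genotype) and 7 of 8 (age) for Ccr4, and in 6 of 7 for Ccl8 and 6 of 8 for Cxcr2 (age); the other alternatives could give no value for the last 3. Not all of these alternatives could change a value. Changing the filter, the mean over probes and the probe nearest the 3′ end returned Cxcl14, Ccl6, Ccl9 and Cxcl16 unchanged. Cxcl12 and Cxcl11 changed among these settings only with the mean over probes. The counts out of 9 for these members therefore hold fewer than 9 informative checks. The cause of the changes under the other settings was not tested. Leaving out Cxcl11 was added after seeing the data. No paired analysis was possible because each group has 1 array. Signal over background limits the dim members.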

Other observations

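Ligands and receptors from lists drawn up beside the family are given here, all outside the naming rule except Cxcr7. Of 5 other chemokine ligands, Xcl1 was not detected. Pf4, a platelet chemokine, read 5.61 on the Runx2+/- array, against 4.92 in P7 wild type and 4.74 in P5 wild type, 0.69 higher in Runx2+/-. Ppbp, also from platelets, read 0.68, -2.00 (not well above background) and -0.25 on the Runx2+/-, P7 wild-type and P5 wild-type arrays, and was at least 2.73-fold higher in Runx2+/-, the only one of 4 ordered past 2-fold. Cx3cl1, a membrane-tethered ligand, read 1.97, 1.43 and 1.24, and its receptor Cx3cr1, of monocytes and macrophages, 2.85, 1.91 and 2.09, 1.92-fold higher in Runx2+/-. Darc (Ackr1), a scavenging receptor of venules and red cells, read 0.85 in Runx2+/-, against -0.30 in P7 wild type and 2.14 in P5 wild type. It was 5.42-fold lower at P7 than at P5, the only one of 4 ordered past 2-fold, and 2.22-fold higher in Runx2+/- than in P7 wild type, the only one of 5. Both counts of ordered receptors include the member Cxcr7. Of 20 signalling and processing genes, 1 of 14 ordered was at least 2-fold apart for genotype and 0 for age. That gene was Vcam1, an adhesion molecule of stroma and endothelium, at 3.65, 2.61 and 2.72.

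The marker lists of other cells gave summed levels, in multiples of the 75th percentile, on the Runx2+/-, P7 wild-type and P5 wild-type arrays. They were 17.98, 11.0 and 14.2 for B cells (9 of 10 detected, not Pax5) and 164.4, 399.2 and 474.3 for dendritic cells (7 of 9, not Zbtb46 or Clec9a), or 22.1, 39.3 and 18.4 without Siglech, the brightest. They were 33.4, 24.2 and 14.2 for mast cells (6 of 8, not Ms4a2 or Fcer1a). They were 7.42, 11.3 and 7.88 for megakaryocytes (4 of 6, not Gp1ba or Gp5), 18.2, 17.9 and 13.9 for lymphatic endothelium (3 of 5, not Prox1 or Reln), 17.3, 52.3 and 60.9 for keratinocytes (6 of 8, not Krt14 or Krt1) and 23.2, 20.3 and 61.1 for leptomeninges (7 of 7). Trp63 alone gave 15.3, 50.6 and 57.1 of the keratinocyte sum, Pdpn 17.5, 15.9 and 13.5 of the lymphatic sum and Ptgds 4.46, 7.09 and 48.5 of the leptomeningeal sum. The counts in brackets are of markers detected on any array, and the sums include markers not detected. By array, in the same order, 9, 5 and 8 B-cell, 7, 3 and 4 dendritic and 6, 5 and 6 mast-cell markers were detected. For megakaryocytes it was 4, 2 and 4, for lymphatic endothelium 3, 2 and 1, for keratinocytes 6, 1 and 4 and for leptomeninges 6, 5 and 7.

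The letters TGTGGT, a core of the site that Runx proteins bind, were looked for on both strands in the 250 bases upstream of each start (RefSeq, GRCm38.p6). They occurred for 8 of the 35 members with a window (22.9%) and for 4 of 17 detected ones (23.5%), Ccl3, Cxcr3, Cxcr6 and Ackr3, where 15.9% of all genes had a window with them. They were not in the Cxcl12 or Cxcl14 windows. A match is a description of letters and not a binding site.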
